A study of Mus musculus with 9 samples.

Results

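The 36 genes described here feed pyruvate into mitochondria, run the citrate cycle and carry reducing equivalents across the inner mitochondrial membrane by the malate-aspartate shuttle. They were taken as a list by name, with no rule on their measured values. Earlier results of these data were known at that choice. One probe set per gene was used, the one with the highest mean over 9 arrays, and 35 of the 36 genes had one and were tested, among 12559 genes tested and 18193 genes with a usable probe set. Mpc2 had no usable probe set.

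Total RNA of 3 kinds of mouse cells was measured on 1-colour Affymetrix arrays, 3 arrays of each. Mouse embryonic fibroblasts (MEF) came from C57BL/6 embryos at embryonic day 13.5. Chemical-induced cardiomyocyte-like cells (CiCM) were MEF treated with CHIR99021 (10 µM, a GSK3 inhibitor), RepSox (10 µM, a TGF-beta receptor kinase inhibitor), Forskolin (50 µM, an activator of adenylyl cyclase), VPA (0.5 mM, a histone deacetylase inhibitor), Parnate (5 µM, an inhibitor of monoamine oxidase and of the demethylase LSD1) and TTNPB (1 µM, a retinoic acid receptor agonist), and beating clusters were picked on day 24. Cardiomyocytes (CM) were isolated directly from mouse heart, and no strain or age is given for them. The labels give no untreated MEF kept to day 24, so time in culture, the cocktail and the picking of clusters cannot be told apart.

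In muscle, pyruvate from glycolysis or lactate enters the mitochondrion through the carrier Mpc1-Mpc2, and the pyruvate dehydrogenase complex turns it into acetyl-CoA. Kinases (Pdk) switch that complex off by phosphorylation and phosphatases (Pdp) switch it on. The citrate cycle then oxidises acetyl groups, and the heart, which beats without pause, is known for a very high content of these enzymes. NADH made in the cytosol cannot cross the inner membrane, and the malate-aspartate shuttle moves its electrons inward.

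Values are log2 signals, so that a difference of 1 is a doubling. A gene is called higher or lower where limma's adjusted p is under 0.05 and the groups differ by 1 or more. Signals below 6.58, the median of the table, are noisy and are named where they matter. The samples of a group are labelled biological replicates, but no label says whether they came from separate litters, cultures or animals, and the p-values measure the spread between these samples. In such RNA, fewer cells of a type and less RNA per cell cannot be told apart.

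The 3 groups held different cells, and 1 array stood apart. All 10 skeletal muscle markers were at or above 6.58 in CiCM, with summed linear signals of 131159 to 145594, against 1 of 10 and 227 to 334 in MEF. Heart markers reached the line for 6 of 10 in CiCM, at 47117 to 48045, and for 10 of 10 in CM, at 329808 to 426244. In CiCM, Tnnt2, Actc1 and Myl2, which heart and some skeletal muscle express, were at 14.50 ± 0.04, 13.66 ± 0.06 and 13.35 ± 0.11 (log2, SD, n = 3). Myh6, Myl3 and Nppa were also above the line, at 7.13 ± 0.75, 8.61 ± 0.57 and 6.64 ± 0.22. Ryr2, the heart's calcium release channel, and Tnni3, cardiac troponin I, were at 5.19 ± 0.65 and 5.77 ± 0.93, below the line. Pln and Mybpc3 were below it too, at 6.52 ± 0.84 and 6.27 ± 0.52. CiCM exceeded MEF with a call for 7 of the 10 heart markers. Among these were Myh6, by 4.53, and Tnni3, by 2.72, from MEF means below the line. Ryr2, Nppa and Mybpc3 were not called. CiCM was lower than CM for all 10. Macrophage markers summed to 30350 to 33756 in MEF (10 of 10), 4410 to 7282 in CiCM (5 of 10) and 14411 to 21869 in CM (9 of 10). The 6 endothelial markers summed to 426 to 682 in MEF (1 of 6), 179 to 223 in CiCM (0 of 6) and 11113 to 12318 in CM (6 of 6). Fibroblast markers were 10 of 10 in each group, at 145119 to 146767 in MEF, 131945 to 137217 in CiCM and 50013 to 65951 in CM. CM replicate 1 carried fat cell genes: Adipoq was at 13.50 there against 6.21 and 5.09 on the other CM arrays, and Cidec at 10.70 against 1.81 and 0.00. Fabp4, which endothelium also carries and which makes up most of the summed adipocyte signal in CM, did not follow them, at 15.00 there against 15.20 and 15.25. The atrial hormone gene Nppa was at 15.24, 12.50 and 12.05 on those 3 arrays. What part these other cells have in the results was not tested. Results that rest on CM replicate 1 are given with and without it.

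Members rose in CM almost throughout and rose in CiCM in part. Against MEF, 30 of 35 members were higher in CM (22.1% of all genes tested) and 2 were lower, Pdk3 and Me2 (21.8% of all genes). Their median difference was 2.12, against -0.03 over all genes tested. In CiCM against MEF, 12 members were higher (11.6% of all genes) and 4 were lower, Idh2, Pdk1, Me2 and Slc25a13 (12.2% of all genes), with a median of 0.65 against -0.03. By the adjusted p alone, 25 members were higher in CiCM (24.2% of all genes) and the same number as before, 4, were lower (27.8% of all genes). The p-values use the spread of all 9 arrays. Without CM replicate 1, Cs also passed as higher and Pdk3 and Me1 as lower, and the share of all genes was not computed for that setting. Set directly against CM, CiCM was lower for 27 members (19.0% of all genes) and higher for 2, Pdk3 and Me2 (16.5% of all genes), with a median of -1.37 against -0.03. These 3 comparisons share arrays, and the counts are not independent of each other.

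**Figure D1:**
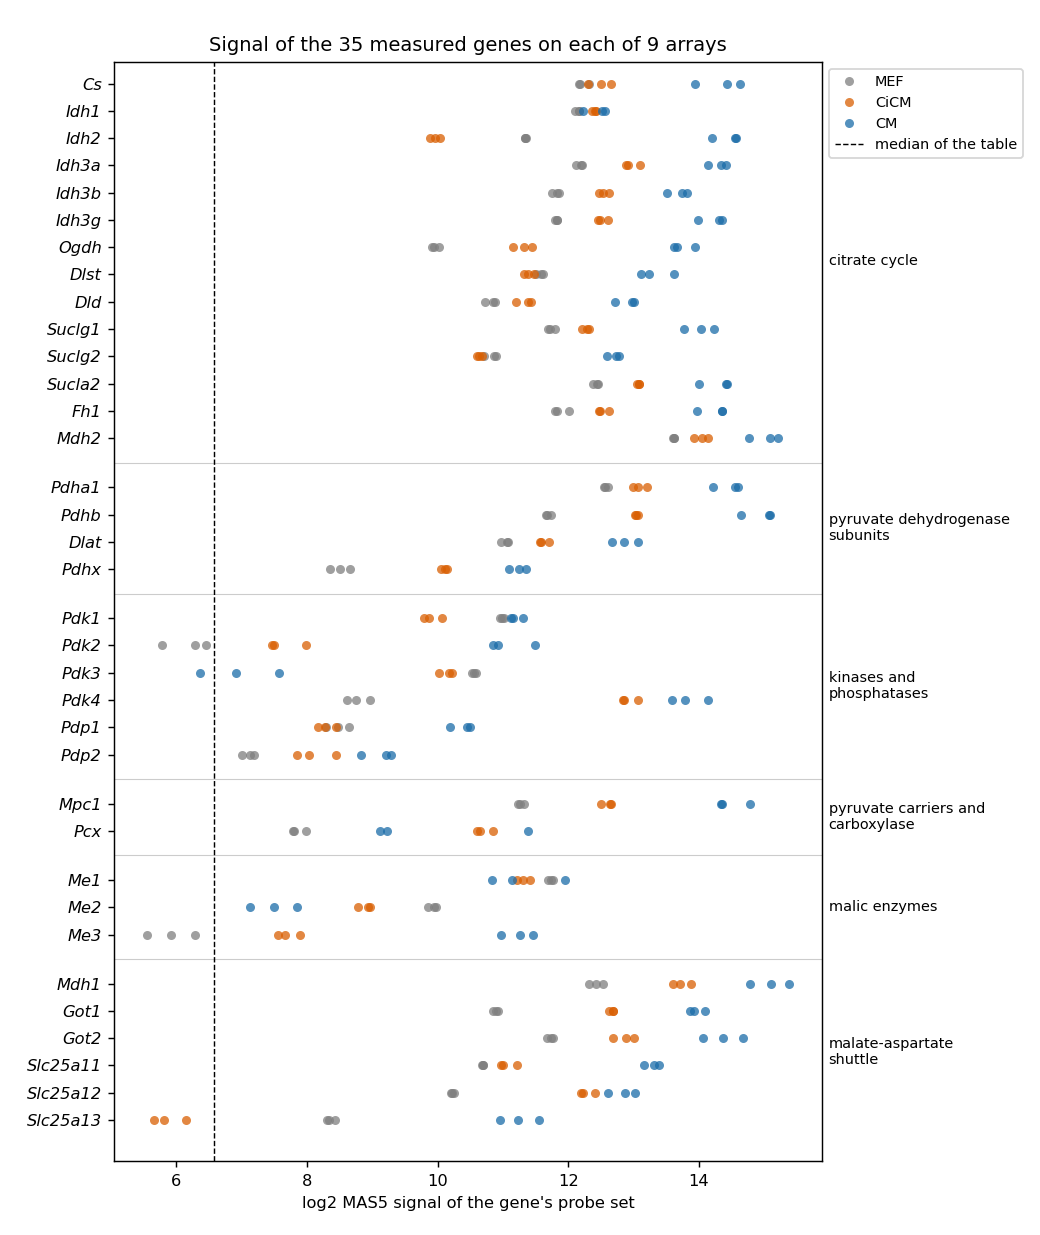
Log2 MAS5 signal (horizontal axis) of each of the 35 measured members (vertical axis, grouped by role) on the 9 arrays, 1 point per array, coloured by group, with the table's median as a dashed line. For 23 members the 3 MEF points lie to the left of the 3 CiCM points, and these to the left of the 3 CM points, whereas Slc25a13 and Idh2 have their lowest points in CiCM.

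The order of the groups was the same for most members. In 23 members every MEF array was below every CiCM array and every CiCM array below every CM array, an order that 10.9% of all genes tested had. In 5 members, Idh2, Dlst, Suclg2, Pdk1 and Slc25a13, the CiCM arrays were the lowest and the CM arrays the highest (4.58% of all genes). Of these, Dlst and Suclg2 differed between CiCM and MEF by only -0.18 and -0.19 and were not called. On its chosen probe set Pdk1 exceeded MEF in CM by only 0.21 and was not called there. That difference was -0.15 with arrays centred on their medians and -0.59 with arrays levelled on their hybridisation controls. On other probe sets of Pdk1, CM differed from MEF by -0.15 (1423748_at) and by 2.90 (1435836_at). CM is thus not settled as the highest group of Pdk1. Pdk3 and Me2 ran the opposite way, from MEF down to CM (12.9% of all genes). No member had CiCM lowest and MEF highest (3.09% of all genes), CM lowest and CiCM highest (5.42%) or MEF lowest and CiCM highest (2.49%). In the remaining 5, Cs, Idh1, Pdp1, Pcx and Me1, arrays of different groups overlapped. Without CM replicate 1 the counts were 24, 5 and 3 for the first 3 orders, beside 11.9%, 5.22% and 14.5% of all genes, and 1 member, Pcx, had MEF lowest and CiCM highest (3.38% of all genes).

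Few of the citrate cycle enzymes were called in CiCM: of 14, 1 was called higher, 1 lower and 12 neither, which is not above the 11.6% and 12.2% of all genes, and the median difference was 0.53. Of the 14 differences, 11 were above 0. By the adjusted p alone, Idh1, Idh3a, Idh3b, Idh3g, Ogdh, Dld, Suclg1, Sucla2, Fh1 and Mdh2 were higher in CiCM (24.2% of all genes). Of the cycle enzymes only Idh2 was lower by it (27.8% of all genes). In CM, 13 of 14 were higher (22.1% of all genes), with a median of 2.10. CiCM was lower than CM for 12 of 14 (19.0% of all genes). With arrays levelled on the hybridisation controls, Idh3a, Idh3b, Dld and Sucla2 differed from CM by -0.76, -0.58, -0.99 and -0.63 and were not called. Idh3b and Sucla2 also lost that call on centring (-0.84 and -0.90) and on quantile normalization (-0.94 and -0.89).

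Ogdh (probe set 1451274_at), the catalytic subunit of the 2-oxoglutarate dehydrogenase complex, was the citrate cycle enzyme called higher in CiCM. Its log2 signals were 9.94, 9.91 and 10.02 in MEF, 11.15, 11.32 and 11.45 in CiCM, and 13.63, 13.66 and 13.95 in CM. The groups did not overlap, and CiCM exceeded MEF by 1.35 ± 0.11 (SE, limma adjusted p = 3.01e-06) while its difference from CM was -2.44 ± 0.11. As a mean over its probe sets, of which the other was dim, the CiCM rise was 0.76 and not called. The partners of Ogdh in the same complex moved less: Dlst, its succinyltransferase core, differed from MEF by -0.18, and Dld, the lipoamide dehydrogenase shared with pyruvate dehydrogenase, by 0.52. In CM the same 3 subunits were higher than in MEF by 3.79, 1.75 and 2.08.

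Idh2 (probe set 1450048_a_at), the mitochondrial isocitrate dehydrogenase that makes NADPH, went the other way. Its signals were 11.35, 11.35 and 11.33 in MEF, 10.04, 9.96 and 9.89 in CiCM, and 14.20, 14.55 and 14.56 in CM. CiCM was thus the lowest group on every array and CM the highest. CiCM fell by 1.38 ± 0.10 from MEF (SE, limma adjusted p = 1.84e-06) and differed from CM by -4.47 ± 0.10, or 22.2-fold. A dimmer probe set of the gene, 1453601_at, differed by -0.51 between CiCM and MEF with both means below the line, and the mean over both was -0.94, which is under the minimum difference. The NAD-linked isocitrate dehydrogenase, the enzyme of the cycle proper, did not follow Idh2: its subunits Idh3a, Idh3b and Idh3g were higher in CiCM by 0.79, 0.73 and 0.70 (limma adjusted p = 4.47e-05, 8.90e-05 and 0.000224), short of the minimum difference. As a mean over its 4 probe sets Idh3a was higher by 1.38, which is a call. The cytosolic Idh1 differed by 0.26 in CiCM and 0.29 in CM from MEF. With arrays levelled on their hybridisation controls or centred on their medians that CM difference of Idh1 turned to -0.51 and -0.08, so Idh1 has no settled direction there.

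The other enzymes of the cycle rose in CM and moved little in CiCM. Cs, citrate synthase, had signals of 12.19, 12.31 and 12.16 in MEF, 12.31, 12.50 and 12.65 in CiCM, and 13.94, 14.43 and 14.63 in CM. The MEF and CiCM arrays of Cs touched, and their difference of 0.27 was not called (limma adjusted p = 0.186, or 0.0340 without CM replicate 1). CM exceeded MEF by 2.11. Succinyl-CoA ligase pairs the shared subunit Suclg1 with either Sucla2, which makes ATP, or Suclg2, which makes GTP. In CiCM, Suclg1 and Sucla2 differed from MEF by 0.54 and 0.66, and Suclg2 by -0.19, all under the minimum difference. CM was above MEF by 2.27, 1.86 and 1.88 for the same 3. Fh1, fumarase, and Mdh2, mitochondrial malate dehydrogenase, were 0.65 and 0.42 above MEF in CiCM and 2.35 and 1.41 above it in CM. The difference of CiCM from CM was -0.99 for Mdh2, just short of a call, and -1.11 without CM replicate 1, which is a call. As means over their probe sets, the others of which were dim, Dld and Sucla2 exceeded MEF in CM by only 0.68 and 0.52, and neither was called there or between CiCM and CM. The CM rises of Dlst and Mdh2 were 0.95 and 0.60 with arrays levelled on the hybridisation controls, and that of Mdh2 was 0.94 after quantile normalization, and these were not called.

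**Figure D2:**
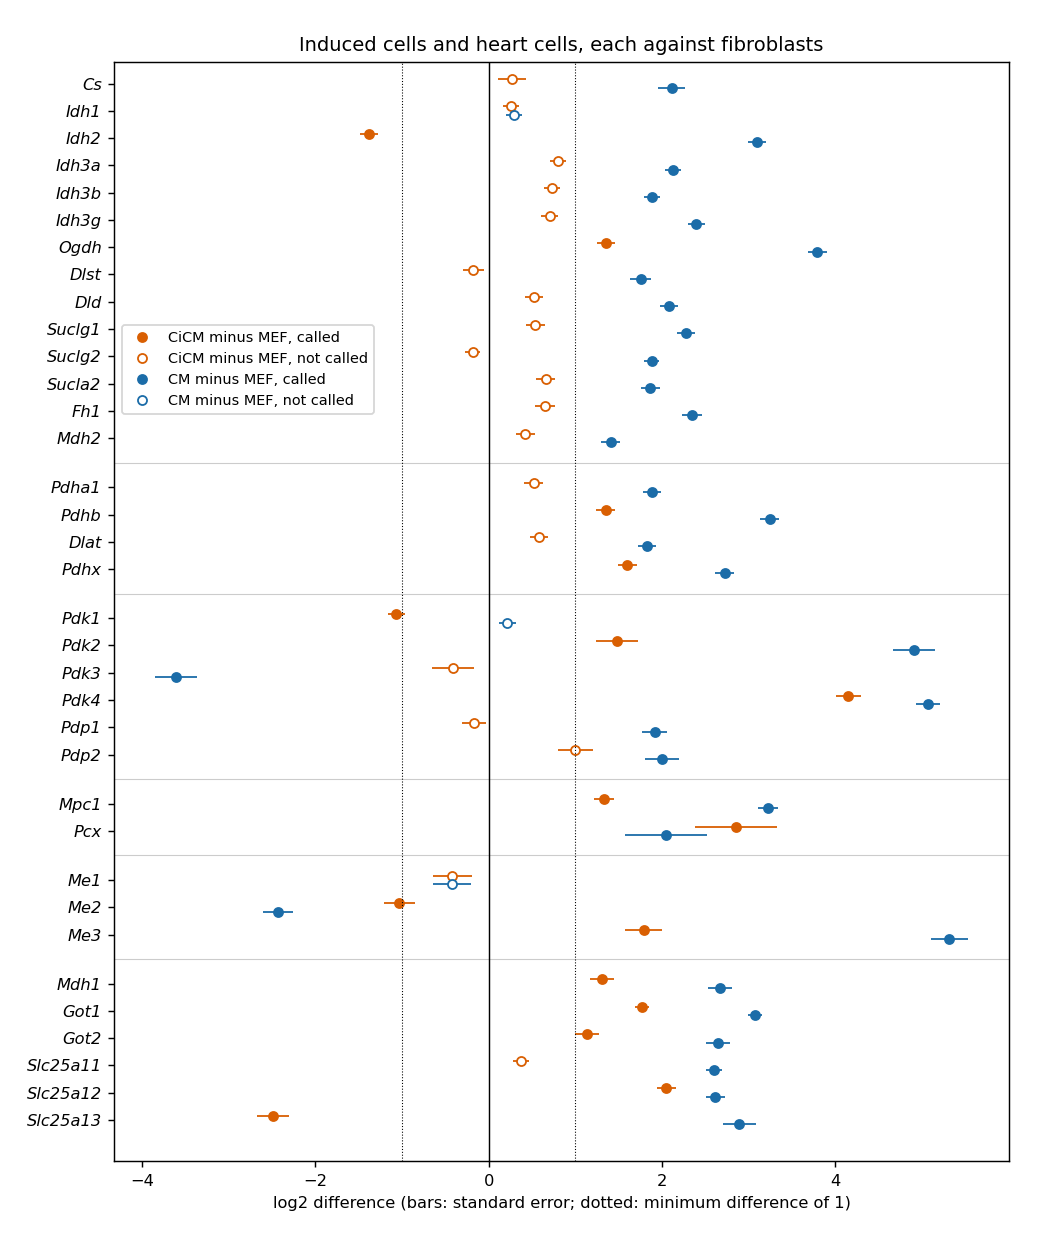
Log2 difference from MEF (horizontal axis, bars are standard errors from limma) for each of the 35 measured members (vertical axis, grouped by role), in orange for CiCM and in blue for CM. Filled points are called and open points are not; dotted lines mark the minimum difference of 1. Most open orange points of the citrate cycle lie between 0 and 1, while 13 of its 14 blue points lie above 1.

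Pyruvate dehydrogenase rose as a complex in CM and unevenly in CiCM. Of its 4 subunits, 2 were called higher in CiCM (11.6% of all genes), all 4 were higher in CM (22.1%), and CiCM was below CM for all 4 (19.0%). With arrays levelled on the hybridisation controls, Pdha1, Dlat and Pdhx differed from CM by -0.79, -0.68 and -0.55 and were not called, and Dlat and Pdhx were not called on centring either (-0.94 and -0.82). Pdhx, which holds the Dld subunit in the complex, had signals of 8.51, 8.66 and 8.36 in MEF, 10.11, 10.06 and 10.15 in CiCM, and 11.10, 11.25 and 11.35 in CM. It rose in CiCM by 1.60 ± 0.11 (SE, limma adjusted p = 1.02e-06). Pdhb, the beta subunit of the decarboxylase, rose by 1.35 ± 0.11 (limma adjusted p = 3.62e-06), or by 0.82, not called, as a mean over probe sets. Its partner Pdha1 differed by 0.52. The acetyltransferase core Dlat differed by 0.58. In CM the differences from MEF were 3.24 for Pdhb, 2.72 for Pdhx, 1.88 for Pdha1 and 1.83 for Dlat.

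The 4 kinases that switch the complex off each had a pattern of their own. Pdk4 (probe set 1417273_at), the isoform known to rise in heart and skeletal muscle when fat is burnt, was at 8.61, 8.96 and 8.75 in MEF, 13.07, 12.84 and 12.85 in CiCM, and 13.59, 13.79 and 14.14 in CM. All CiCM and CM arrays were far above all MEF arrays. The rise in CiCM was 4.15 ± 0.14, or 17.7-fold (SE, limma adjusted p = 6.57e-09), and it was the largest among the members. The difference of CiCM from CM was -0.92, and -1.05 without CM replicate 1, past the minimum difference.

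Pdk2, the isoform of most tissues, rose in both cell types but to different levels. Its signals were 5.79, 6.29 and 6.45 in MEF, 7.50, 7.99 and 7.47 in CiCM, and 10.85, 10.92 and 11.49 in CM. The MEF arrays lay below the line of 6.58, so the fold against them is uncertain: the CiCM rise was 1.48 as deposited and 0.72, no longer called, with 4 times 32 added to each linear signal before log2. CiCM differed from CM by -3.43 ± 0.24 (SE, limma adjusted p = 7.51e-07).

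Pdk3, a kinase of narrower tissue range, was low in CM. It was at 10.56, 10.58 and 10.53 in MEF, 10.18, 10.03 and 10.23 in CiCM, and 7.57, 6.91 and 6.37 in CM. CiCM differed from MEF by -0.41 (limma adjusted p = 0.174, or 0.0279 without CM replicate 1), and their arrays did not overlap. CiCM exceeded CM by 3.20 ± 0.24 (SE, limma adjusted p = 1.14e-06), a 9.17-fold difference. CM fell by 3.61 from MEF.

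Pdk1, the isoform known as a target of hypoxia signalling, was at 10.96, 10.98 and 11.02 in MEF, 10.08, 9.88 and 9.80 in CiCM, and 11.13, 11.31 and 11.15 in CM. It fell in CiCM by 1.07 ± 0.10 (SE, limma adjusted p = 7.47e-06), close to the minimum difference. The difference was -0.98 with 4 times 32 added and -0.93 as a mean over probe sets, and then was not called. The probe sets of Pdk1 disagreed: between CiCM and MEF, 1423748_at differed by -1.27 and 1435836_at by 0.78. Between CM and MEF they differed by -0.15 and 2.90. Which transcript each probe set detects was not analysed here, so Pdk1 has no settled direction from MEF in CiCM or in CM.

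The phosphatases that switch the complex on were both called higher in CM and neither in CiCM. Pdp1 was at 10.38 ± 0.16 in CM and 8.47 ± 0.17 in MEF, and Pdp2 at 9.11 ± 0.24 and 7.11 ± 0.09 (log2, SD, n = 3). Pdp2 was at 7.85, 8.03 and 8.45 in CiCM against 7.13, 7.19 and 7.01 in MEF. No arrays of Pdp2 overlapped between these groups, but its difference of 1.00 (limma adjusted p = 0.00193) was just under the minimum. It was called on leaving out CiCM replicate 1 or 2 or MEF replicate 1 or 2. Pdp1 differed by -0.17.

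**Figure D3:**
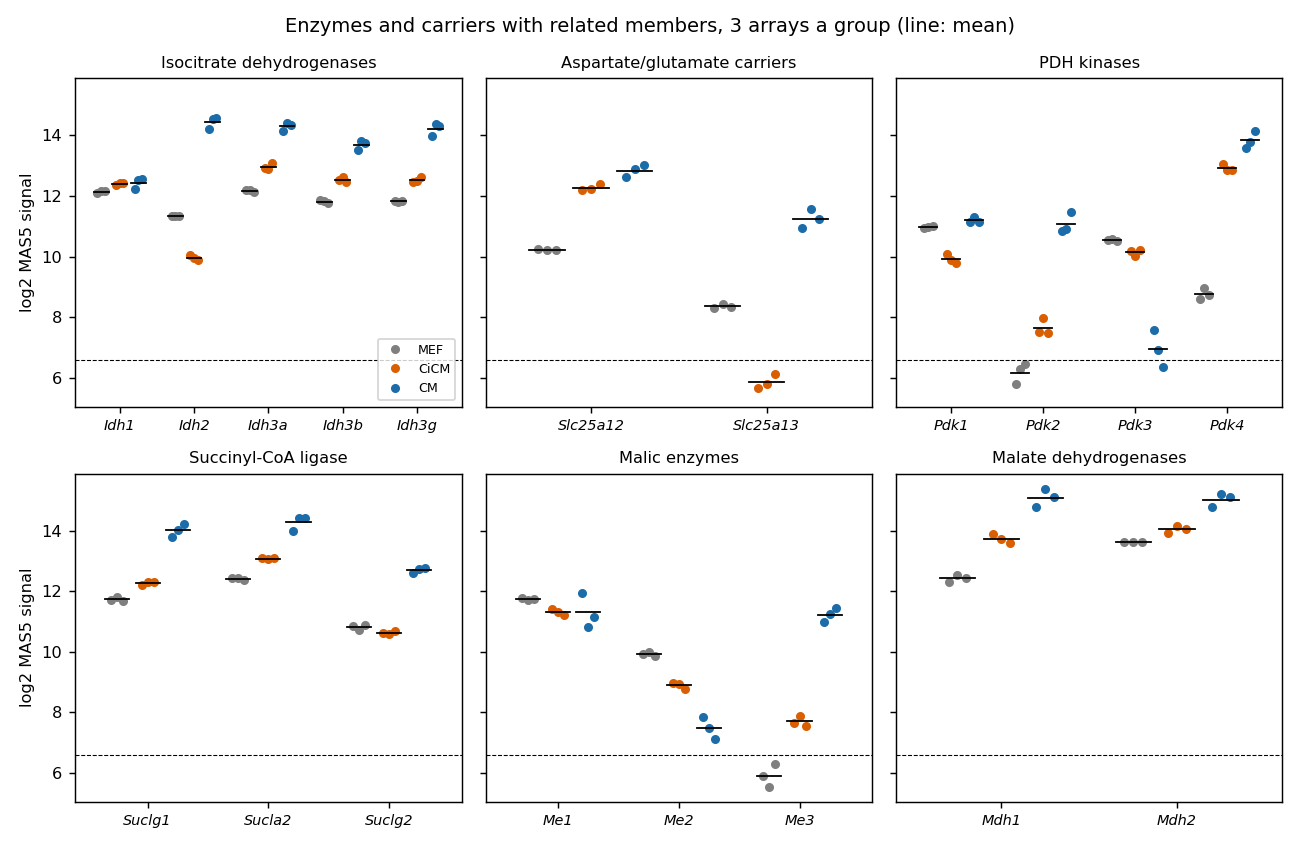
Log2 MAS5 signal (vertical axis) of genes (horizontal axis) in 6 families, 1 panel per family, with 1 point per array, coloured by group, a short line at each group mean and a dashed line at the table's median. Pdk4 rises from MEF to CiCM while Pdk3 is low in CM, and the paired carriers Slc25a12 and Slc25a13 part in CiCM. Heights of different genes are from different probe sets and are not to be compared.

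Both measured genes for the entry and carboxylation of pyruvate rose in CiCM. Mpc1, a subunit of the mitochondrial pyruvate carrier, was at 11.32, 11.26 and 11.24 in MEF, 12.65, 12.66 and 12.50 in CiCM, and 14.33, 14.78 and 14.36 in CM. The groups were well apart, with a rise in CiCM of 1.33 ± 0.12 (SE, limma adjusted p = 5.64e-06) and in CM of 3.22.

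Pcx (probe set 1416383_a_at), pyruvate carboxylase, which refills the cycle with oxaloacetate and is abundant in fat, liver and kidney, was at 7.98, 7.80 and 7.79 in MEF, 10.61, 10.65 and 10.85 in CiCM, and 11.38, 9.12 and 9.22 in CM. The CiCM arrays were alike, and the CM arrays were not: replicate 1 was above every CiCM array and the other two below. CiCM exceeded MEF by 2.85 ± 0.47, or 7.20-fold (SE, limma adjusted p = 0.000546). Against CM the difference was 0.80 and not called (limma adjusted p = 0.160). Without CM replicate 1, CiCM exceeded CM by 1.54 (limma adjusted p = 2.40e-06) and CM exceeded MEF by 1.31 in place of 2.05. With arrays levelled on the hybridisation controls the CM difference from MEF was 1.24 and was not called (limma adjusted p = 0.0535).

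The arrays also carry another reading of Pcx, in control probe sets for the 5', middle and 3' parts of its transcript. The one at its 3' part gave 7.62, 7.84 and 7.71 in MEF, 10.24, 10.60 and 10.54 in CiCM, and 10.88, 9.16 and 9.15 in CM. As with the gene's own probe set, CM replicate 1 was the highest CM array and the MEF arrays were the lowest of all. All 4 control probe sets had a higher mean in CiCM than in MEF, by 1.11 to 2.74, and a higher mean in CiCM than in CM, by 0.66 to 1.20. The MEF means of the 5' and of both middle probe sets, 6.44, 5.57 and 5.97, lay below the line. The CM means include replicate 1. These differences were not tested.

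The array with high Pcx is the one that carries fat cell genes. Acly, ATP-citrate lyase, which exports citrate carbon to lipid synthesis, was at 13.14 on CM replicate 1 against 10.71 and 11.38, and the citrate carrier Slc25a1 at 10.69 against 8.14 and 7.76. Acly was chosen for mention after its values were seen. Ucp1, the uncoupling protein of brown fat, was at 13.27 on that array against 6.60 and 3.64. Of the 6 listed adipocyte markers 5 had a probe set, and their summed linear signals ran from 37939 to 55929 in CM, 169 to 367 in CiCM and 2035 to 2209 in MEF. Of these 3 were at or above the line in CM, Adipoq, Fabp4 and Ucp1, and 1, Fabp4, in each of the other groups. Without CM replicate 1 the CM means of Adipoq and Ucp1 lie below the line, and only Fabp4 stays above it. Cidec was at 0.00 on CM replicate 3. The part of fat cells in the CM value of Pcx was not tested, but the CiCM rise over MEF does not use the CM arrays other than in the spread.

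**Figure D4:**
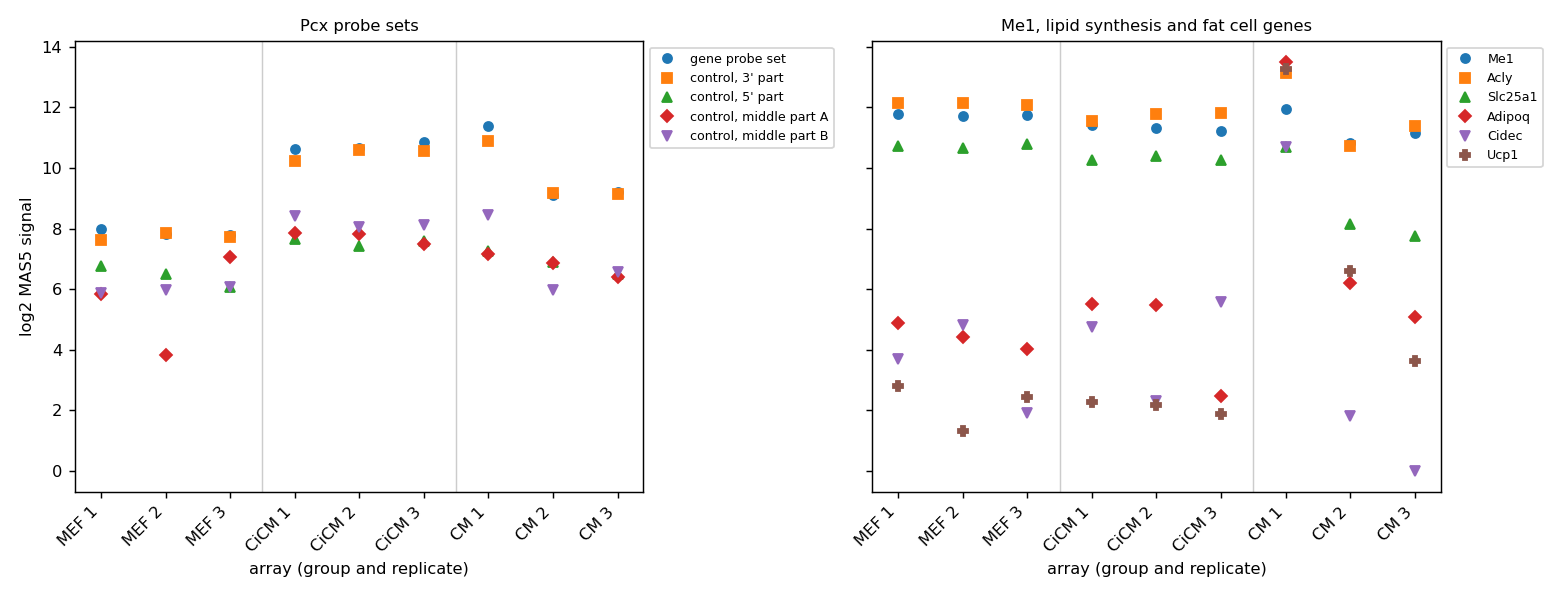
Log2 MAS5 signal (vertical axis) on each of the 9 arrays (horizontal axis) of the Pcx probe sets (left) and of Me1, 2 lipid synthesis genes and 3 fat cell genes (right). CM replicate 1 is higher than the other CM arrays for Pcx (11.38 against 9.12 and 9.22) and for Adipoq (13.50 against 6.21 and 5.09).

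The malic enzymes, which turn malate into pyruvate, split by isoform. Me3, a mitochondrial NADP-linked enzyme, was at 5.91, 5.54 and 6.29 in MEF, 7.66, 7.89 and 7.56 in CiCM, and 10.98, 11.26 and 11.46 in CM. It rose by 1.79 ± 0.22 in CiCM (SE, limma adjusted p = 5.95e-05) and by 5.32 in CM. Its MEF signals were all below the line, and with 4 times 32 added the CiCM rise was 0.83 and not called.

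Me2, the mitochondrial NAD-linked enzyme, ran the other way, at 9.94, 9.98 and 9.85 in MEF, 8.96, 8.94 and 8.79 in CiCM, and 7.84, 7.49 and 7.13 in CM. The groups did not overlap. The fall in CM was 2.44, and that in CiCM was 1.03 ± 0.18 (SE, limma adjusted p = 0.000639), at the edge of the minimum difference. The CiCM difference was -0.98 with 32 added, -0.87 with 4 times 32 added, -0.98 after quantile normalization, -0.98 without CiCM replicate 3 and -0.67 as a mean over probe sets, and was then not called. Against CM it was 1.40, or 0.85 and not called as a mean over probe sets. Me1, the cytosolic enzyme that supplies NADPH to lipid synthesis, differed from MEF by -0.42 in CiCM and by -0.42 in CM. For CiCM the limma adjusted p was 0.139, or 0.00258 without CM replicate 1. Me1 was at 11.96 on CM replicate 1 against 10.83 and 11.14, and without that array the CM difference was -0.75. On a second probe set of Me1, 1416632_at, CiCM differed from MEF by -0.27 and CM by 0.28. Its direction in CM is therefore not settled.

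Of the 6 genes of the malate-aspartate shuttle, CiCM exceeded MEF for 4 and was below it for 1, beside 11.6% and 12.2% of all genes, with a median difference of 1.22. In CM all 6 were higher (22.1% of all genes), with a median of 2.65, and CiCM was below CM for 5 of 6 (19.0% of all genes). Of these 5, Mdh1, Got1 and Got2 differed from CM by -0.79, -0.72 and -0.93 with arrays levelled on the hybridisation controls and were then not called. Got1 also lost that call on centring (-0.99), and Mdh1 on quantile normalization (-0.93). Got1, the cytosolic aspartate aminotransferase, was at 10.89, 10.93 and 10.86 in MEF, 12.62, 12.68 and 12.68 in CiCM, and 13.92, 13.87 and 14.10 in CM. The groups were far apart relative to their spread, and CiCM exceeded MEF by 1.77 ± 0.08 (SE, limma adjusted p = 4.48e-08). Mdh1, the cytosolic malate dehydrogenase, rose by 1.30 ± 0.14 (limma adjusted p = 2.78e-05), and Got2, the mitochondrial aminotransferase, by 1.13 ± 0.14 (limma adjusted p = 7.53e-05). As means over probe sets, dim ones included, these rises were 0.89 and 0.71 and were not called. Got2 was not called with arrays levelled on the hybridisation controls either, at 0.91. The malate carrier Slc25a11 differed by 0.37 in CiCM and rose by 2.60 in CM.

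The aspartate-glutamate carrier, the step of the shuttle that the membrane potential drives, has a pair of isoforms, and they moved in opposite directions in CiCM. Slc25a12 (aralar, probe set 1428440_at), the isoform known from muscle, heart and brain, was at 10.25, 10.22 and 10.21 in MEF, 12.20, 12.23 and 12.41 in CiCM, and 12.61, 12.88 and 13.03 in CM. It rose in CiCM by 2.05 ± 0.11, or 4.14-fold (SE, limma adjusted p = 1.57e-07). The difference of CiCM from CM was -0.56 and not called. It was 0.01 with arrays levelled on the hybridisation controls and -1.14, called, as a mean over probe sets.

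Slc25a13 (citrin, probe set 1449481_at), the isoform known from liver, was at 8.31, 8.43 and 8.34 in MEF, 5.65, 5.81 and 6.14 in CiCM, and 10.95, 11.56 and 11.24 in CM. The CiCM arrays were the lowest and the CM arrays the highest, with no overlap. CiCM fell by 2.49 ± 0.19 from MEF (SE, limma adjusted p = 1.91e-06), and CM rose by 2.89. The CiCM signals lay below the line of 6.58, so the size of the fall is uncertain. The difference was -1.99 with 32 added and -1.29 with 4 times 32 added, and was called in both. Against CM the difference was -5.38 ± 0.19, the largest among the members in that comparison, 41.7-fold. One probe set measured Slc25a13, so no second reading of it was had.

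Promoter windows are described for these carriers by their letters, and those of the members were searched for a motif. A link between the windows and the carriers' signals was not tested. RefSeq (GRCm38.p6) gave windows for 33 of the 36 members, with none for Idh3a, Pdp1 and Me2. The 250 bases before the start are printed for both carriers, on the strand of the gene, with each CG dinucleotide in capitals. For Slc25a12 the window is chr2:71367756-71368005 on the minus strand, with 6 CG and 49.6% G+C, and for Slc25a13 it is chr6:6217174-6217423 on the minus strand, with 11 CG and 62.8% G+C.
Slc25a12: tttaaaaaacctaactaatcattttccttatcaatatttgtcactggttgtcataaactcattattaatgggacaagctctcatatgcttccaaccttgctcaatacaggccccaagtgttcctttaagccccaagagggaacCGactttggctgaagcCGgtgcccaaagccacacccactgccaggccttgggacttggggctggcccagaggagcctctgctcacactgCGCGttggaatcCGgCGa
Slc25a13: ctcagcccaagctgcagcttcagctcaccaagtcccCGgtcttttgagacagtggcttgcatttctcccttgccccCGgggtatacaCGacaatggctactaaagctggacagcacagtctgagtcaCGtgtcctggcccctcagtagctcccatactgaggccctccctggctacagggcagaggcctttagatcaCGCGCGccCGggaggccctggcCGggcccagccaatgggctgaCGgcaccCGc
Both had fewer CG than the median of members, 15 per 250 bases, while the median over all genes with a window was 6. The median G+C content was 60.6% in members and 52.4% in all genes.

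The core motif of the oestrogen-related receptors, AAGGTCA, was searched on both strands of windows from 250 bases before to 50 after each start. These receptors are known activators of citrate cycle genes in heart and muscle. The motif lay in 2 of 33 members (6.06%), Ogdh and Got1, against 5.38% of 27025 genes, a share near the background. The longer form, TCA followed by AGGTCA, which always contains the core, was in 0 of 33 members and 0.466% of all genes. Ogdh has 6 windows, 1 of which holds the motif, and Got1 has 1. A gene counted if any of its windows held it, and by window the shares were 4.55% of 44 in members and 4.72% of 32851 in all genes. The Ogdh window with the motif is chr11:6291920-6292171 on the plus strand, with the motif, on the other strand, in capitals at its end. The Got1 window is chr19:43524606-43524855 on the minus strand, with the motif in capitals near its far end.
Ogdh: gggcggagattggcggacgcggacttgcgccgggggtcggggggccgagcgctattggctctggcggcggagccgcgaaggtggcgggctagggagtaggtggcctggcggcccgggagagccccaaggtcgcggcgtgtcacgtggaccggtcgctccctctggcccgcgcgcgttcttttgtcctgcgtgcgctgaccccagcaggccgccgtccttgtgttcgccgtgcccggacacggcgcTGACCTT
Got1: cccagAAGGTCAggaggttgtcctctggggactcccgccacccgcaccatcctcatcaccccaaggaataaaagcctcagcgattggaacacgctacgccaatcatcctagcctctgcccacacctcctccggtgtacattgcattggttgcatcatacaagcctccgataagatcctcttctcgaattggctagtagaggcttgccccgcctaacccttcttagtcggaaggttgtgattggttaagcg
A match is a description of letters, and its absence from the other windows says nothing of binding elsewhere.

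Genes around these steps, which are no members, moved in part with them. Of 27 such genes 24 had a probe set and 21 were tested. In CiCM against MEF 5 were higher and 2 lower, in CM against MEF 11 higher and 4 lower, and in CiCM against CM 3 higher and 9 lower. The all-gene shares are 11.6% and 12.2%, 22.1% and 21.8%, and 16.5% and 19.0%, so the counts of 2 and 4 lower and of the last 3 higher lie near or below the background. Slc2a4, the insulin-responsive glucose carrier of muscle, rose by 2.61 in CiCM and 6.24 in CM, and Slc2a1, the carrier of growing cells, fell by 1.56 and 2.42 (limma adjusted p = 1.29e-06 and 4.17e-07 in CiCM). Ldhb, the heart form of lactate dehydrogenase, rose by 1.55 and 4.19, while Slc16a1, a carrier of lactate and pyruvate, rose by 1.12 in CiCM and 2.33 in CM. Pck2, the mitochondrial enzyme that turns oxaloacetate into phosphoenolpyruvate, fell by 1.81 in CiCM and 4.02 in CM. Lipt1, which attaches the lipoyl group that the dehydrogenase complexes need, rose by 1.12 in CiCM and 1.09 in CM. In CM the transhydrogenase Nnt rose by 3.85 and Sdhb, the iron-sulphur subunit of succinate dehydrogenase, by 2.43, while the lactate exporter Slc16a3 fell by 2.64.

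The 11 listed regulators of energy metabolism and growth are given by value. The coactivators Ppargc1a and Ppargc1b were at 5.53 ± 0.60 and 6.40 ± 0.34 in MEF, 7.53 ± 0.14 and 9.86 ± 0.25 in CiCM, and 11.05 ± 0.01 and 11.42 ± 0.45 in CM (log2, SD, n = 3). Both MEF means lay below the line. The receptor Esrra was at 8.82 ± 0.08, 10.08 ± 0.15 and 11.53 ± 0.20, and its relatives Esrrb and Esrrg at 6.54 ± 0.82, 8.32 ± 0.08 and 8.84 ± 0.19 and at 4.62 ± 0.65, 6.31 ± 0.48 and 10.36 ± 0.25, in MEF, CiCM and CM. Ppara, the fatty acid sensor, was at 5.76 ± 0.46, 6.46 ± 0.31 and 10.41 ± 0.25. Hif1a, the hypoxia factor, was at 13.47 ± 0.01, 13.66 ± 0.07 and 11.97 ± 0.18, and Myc, a transcription factor of proliferating cells, at 10.96 ± 0.05, 8.89 ± 0.03 and 7.24 ± 0.39. The other 3, Tfam, Nrf1 and Ppard, were not called in any comparison. Tfam, which maintains mitochondrial DNA, was at 10.53 ± 0.12, 10.50 ± 0.17 and 10.87 ± 0.03, Nrf1, an activator of mitochondrial genes, at 8.10 ± 0.18, 7.24 ± 0.44 and 8.08 ± 0.14, and Ppard, another fatty acid sensor, at 7.83 ± 0.21, 7.86 ± 0.47 and 7.93 ± 0.48.

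The level of the arrays themselves bears on the counts. The deposited signals were scaled to a trimmed mean of 500.003 on each array. With arrays levelled on 18 hybridisation control probe sets, the median of all genes shifted to -0.26 (CiCM minus MEF), -0.84 (CM minus MEF) and 0.55 (CiCM minus CM). Levelling adds 1 constant to all genes of an array, so the members' medians minus those of all genes, 0.68, 2.16 and -1.34, cannot change under it. Calls among members were then 11 higher and 4 lower, 27 higher and 3 lower, and 3 higher and 15 lower. Over all genes tested, 9.01% were then higher and 16.5% lower, 12.3% and 43.7%, and 32% and 11%, in the same order. Of all calls made, the share that were higher went from 48.6% to 35.4%, from 50.4% to 22.1% and from 46.5% to 74.5%. With each array centred on its median it was 45.3%, 35.1% and 62.4%.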

How the data were processed

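The values analysed are deposited log2 signals, for 45101 probe sets and 9 arrays. MAS5 is named in the submitters' processing notes, without a version, and the scale was read from the values: the mean without the highest and lowest 2% of linear signals was 500.003 on every array. Labelling primed from the 3' end, per the labels' protocols. Values were used unchanged. Probe sets with 1 gene symbol (34945) were kept, 932 with several and 9160 with none were left out, as were 64 control probe sets, and each gene took its probe set with the highest mean, giving 18193 genes. Of these 5634, whose highest group mean was under 6.58, were left out. All 35 measured members passed.

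Differences were tested with limma 3.58.1 in R 4.3.3 (lmFit, eBayes with trend, 2-sided), 9 arrays in 1 fit without covariates, and Benjamini-Hochberg adjustment over 12559 genes. Calls need an adjusted p under 0.05 and a minimum absolute difference of 1. With 3 arrays a group, exact permutation tests reach p = 0.1 at best. The script was tested on simulated data. All members are named, with up to 6 called neighbouring genes per comparison by size, and regulators by value. The members and lists were chosen with earlier results of these data known. Alternatives were 32 or 4 times 32 added to the linear signal, no filter or one at 8.91, quantile normalization, array medians, hybridisation controls, the mean over probe sets, 2 groups only, array weights, no trend, the adjusted p alone, the replicate block and each array left out. Scan dates and detection calls were not analysed here. The number of arrays limits the precision.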

Additional observations from a re-analysis of the deposited data

How the results depend on the processing

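No member that was called in a comparison changed direction under the alternatives run. In CiCM against MEF, the 12 members called higher were 25 with no minimum difference, and the 4 called lower were 2 with 4 times 32 added and 1 as a mean over probe sets (Slc25a13). In CiCM against CM, the 2 called higher were 1 with 4 times 32 added and 1 as a mean over probe sets, and the 27 called lower were 15 with arrays levelled on the hybridisation controls. Leaving out each array in turn gave 12 to 13 higher and 3 to 4 lower in CiCM against MEF, 30 and 2 in CM against MEF, and 2 to 3 and 26 to 29 in CiCM against CM. The orders of the groups without CM replicate 1 were added after the data were seen.

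Among all genes tested, calls were 1451 higher and 1536 lower in CiCM against MEF, 2779 and 2736 in CM against MEF, and 2075 and 2387 in CiCM against CM. With no minimum difference these were 3043 and 3486, 4218 and 4572, and 4077 and 4012. With 4 times 32 added they were 966 and 934 in CiCM against MEF. Levelling on the hybridisation controls gave 1551 and 5483 in CM against MEF and 4023 and 1377 in CiCM against CM. The cause of these shifts was not tested.

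The replicate numbers showed little pairing of the arrays. The correlation of same-numbered arrays' deviations lay between -0.0156 and 0.0668, and that of differently numbered arrays between -0.0442 and 0.0292. Whether same-numbered arrays shared a culture or batch was not tested. With the replicate number as a block, the members called were 12 higher and 4 lower, 30 and 2, and 2 and 27, the same counts as without it. Signals below 6.58 limit the fold changes of Pdk2, Me3 and Slc25a13.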

Other observations

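Other probe sets of the members gave a second reading. For 34 further probe sets, of 21 members, the highest group mean was at or above the line. Of these, 27 had the sign of the chosen one in CiCM against MEF, 29 in CM against MEF and 31 in CiCM against CM. Some passed only through CM, such as 1438338_at of Mdh1, at 5.73 in MEF, 5.62 in CiCM and 9.15 in CM. Their sign between CiCM and MEF is noisy, and a pass through CM favours a shared sign in comparisons with CM. For Mdh1, 1454925_x_at differed by 2.36 between CiCM and MEF, 1448172_at by 1.66, 1438338_at by -0.11 and 1434319_at, below the line in all groups, by -0.77, against 1.30 for the chosen one. Other probe sets of Idh3a, 1422500_at and 1422501_s_at, differed by 1.35 and 1.38, against 0.79 for the chosen one. Idh3b was split, with 1418885_a_at at -0.53 in CiCM and -0.34 in CM against MEF. These probe sets were chosen for mention after their values were seen, and were not tested.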
